A study of Bos taurus with 16 samples.

Results

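Transcript levels in cattle were compared between the stages before embryonic genome activation (EGA) and those after it, in oocytes and embryos that had developed in the animal. The groups were set by stage label alone, with no measured value in the rule. The 6 samples before EGA were MII oocytes (mature oocytes arrested in the second meiotic metaphase), 2-cell embryos (2C) and 4-cell embryos (4C). The 10 samples after EGA were 8-cell embryos (8C), 16-cell embryos (16C), early morulae (EM), compact morulae (CM) and blastocysts (BL). Each of the 8 stages had 2 samples, named here by stage and replicate, and the 16 samples were all samples of the series. Each sample was the RNA of 1 oocyte or embryo, amplified in 2 rounds before sequencing on the SOLiD platform. The organism was Bos taurus. Breed, age, sire and hormone treatment are not given in the sources used here, and no genetic change or compound set the groups apart. All 27393 loci of the table were considered, and 6910 of them had enough reads to be tested. Each value below is from 6 samples before and 10 samples after EGA.

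A mammalian oocyte finishes its growth with almost no transcription of its own, and its stored mRNAs direct meiosis, fertilisation and the first cleavages. These maternal mRNAs are kept silent by RNA-binding proteins, translated on demand and then deadenylated and degraded. In cattle the embryo's own genome becomes widely transcribed between the 4-cell and 8-cell stages. The embryo then forms its first epithelium, the trophectoderm, which pumps fluid into the blastocyst cavity and later makes the placenta, while the inner cells keep pluripotency.

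The values are reads per locus divided by a size factor of the sample, and the reads could be recovered exactly. Between 607672 and 3379426 reads were recovered per sample, so that 3 reads, taken as the smallest detectable number, stood for between 0.888 and 4.94 CPM (reads per 1000000 reads of the sample). Levels are given as CPM with the lowest, highest and median sample. Because they are not divided by transcript length, levels were compared between samples and not between genes. The test was that of limma, run on the log2 of each deposited value plus 1 and adjusted by Benjamini-Hochberg over the 6910 loci with a threshold of 0.05, and every log2 difference below is after minus before EGA on that scale, which understates changes of genes with few reads. "Rose" and "fell" are used only of loci past that threshold. Whether the periods overlapped was judged on the deposited values, and for the genes that rose or fell an overlap is stated where there was one. Because CPM are scaled differently, the CPM ranges of ADCY3, CPEB1, MTHFD1, PDK3, SLC7A2, RBL2, NUP88, AMOT, BMPR2 and STAR overlapped while their deposited values did not, and the opposite held for EIF1AX. All values are relative to the other transcripts of the same sample, and fewer cells of a type and less RNA per cell cannot be told apart. The paper states that library preparation included poly(A) enrichment. A change in transcript amount and a change in poly(A) tail length therefore cannot be told apart either. The labels do not say which samples came from different animals, so the p-values measure the spread between these samples. Replicates of a stage correlated with Pearson r between 0.699 (8C) and 0.936 (4C) across loci.

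Most tested transcripts changed level between the periods, 66.8% of them past the threshold. Of the 6910 loci, 2550 (36.9%) rose and 2069 (29.9%) fell. The groups did not overlap for 1104 loci that were higher after EGA (16%) and for 971 that were lower (14.1%). The median log2 difference was 2.63 among the loci that rose and -2.51 among those that fell, against 0.23 among all loci tested. With values scaled to total reads that median was 0.66, and with TMM factors 0.31, so differences near 0 depend on the scaling. Loci with gene symbols rose in 36.6% of cases and fell in 29.7%, unnamed loci in 35.9% and 35.6%.

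The libraries before EGA were also dominated by fewer transcripts. The loci that together took 50% of the reads numbered between 21 and 74 (median 42) before EGA and between 63 and 208 (median 99) after it. The locus with the most reads took between 7.44% and 27.0% of the reads before EGA against between 1.54% and 5.90% after it. Both differed between the periods (exact permutation test over 8008 splits, two-sided, adjusted p = 0.00075 for each over 3 measures). The splits treated the 16 samples as exchangeable although 2 samples shared each stage, so these p-values do not measure the spread between stages. The number of loci expected at a common depth of 607672 reads, 9049 ± 1227 (SD, n = 6) before and 9866 ± 642 (SD, n = 10) after, did not pass that exact test (adjusted p = 0.12).

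Most loci were past the midpoint of their 2 period means already at the 8-cell stage. For each locus that rose, the midpoint between its period means was taken, and the stage mean was above it at 12.0% of these loci in 4C and at 91.3% in 8C. Of the loci that fell, the stage mean was below the midpoint at 6.33% in 4C, 91.4% in 8C and 88.3% in BL. These shares describe loci chosen by the same values, with the 8C samples part of the later mean, and carry no test. By sample, 8C replicate 2 stood apart from its partner: 81.1% of the loci that rose were above their midpoint there and 71.2% of those that fell were below it, against 91.3% and 89.9% in 8C replicate 1. Among the 10 samples after EGA, 8C replicate 2 had the highest value at 30.4% of the loci that fell. Without it, 2564 loci rose and 2086 fell.

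**Figure D1:**
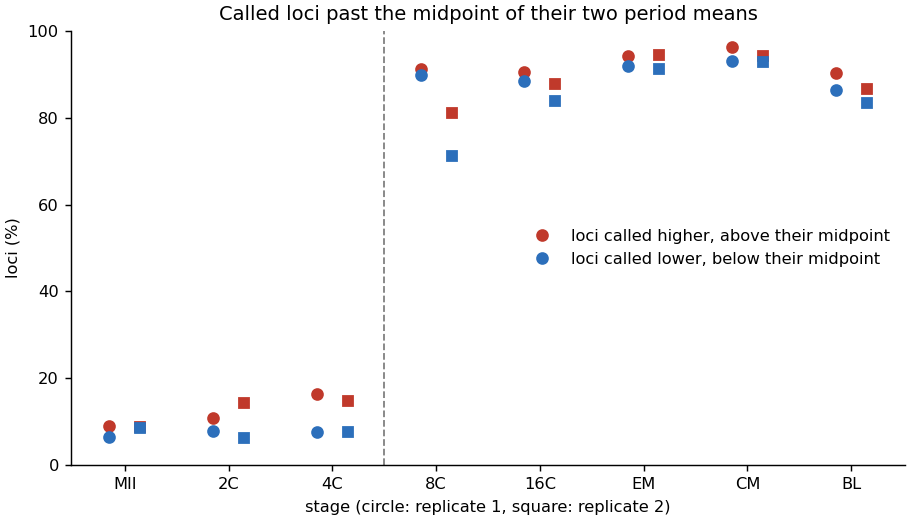
Share of the 2550 loci that rose (red) and the 2069 that fell (blue) that had passed the midpoint of their 2 period means, in each sample; the y axis is percent of loci, the x axis the stage, and the dashed line separates the periods. The 6 samples before EGA lie between 6.23% and 16.2%, the 10 after it between 71.2% and 96.3%, and 8C replicate 2 is the lowest of these.

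Gene lists for 52 functions and cell types, holding 2816 genes, were then counted against this background of 36.9% rising and 29.9% falling, and their medians against that of all loci, 0.23. The lists separated into those whose members mostly rose, those whose members mostly fell, and a broad middle in which both directions were present. A list's counts and median are descriptions and were not tested as a set. On values scaled to total reads, which moved the median of all loci to 0.66, the medians of 8 lists changed from below to above 0: DNA replication, DNA repair, cyclins, tubulins and motor proteins, the BCL2 family, Mediator, RNA polymerases I and III, and receptor tyrosine kinases.

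**Figure D2:**
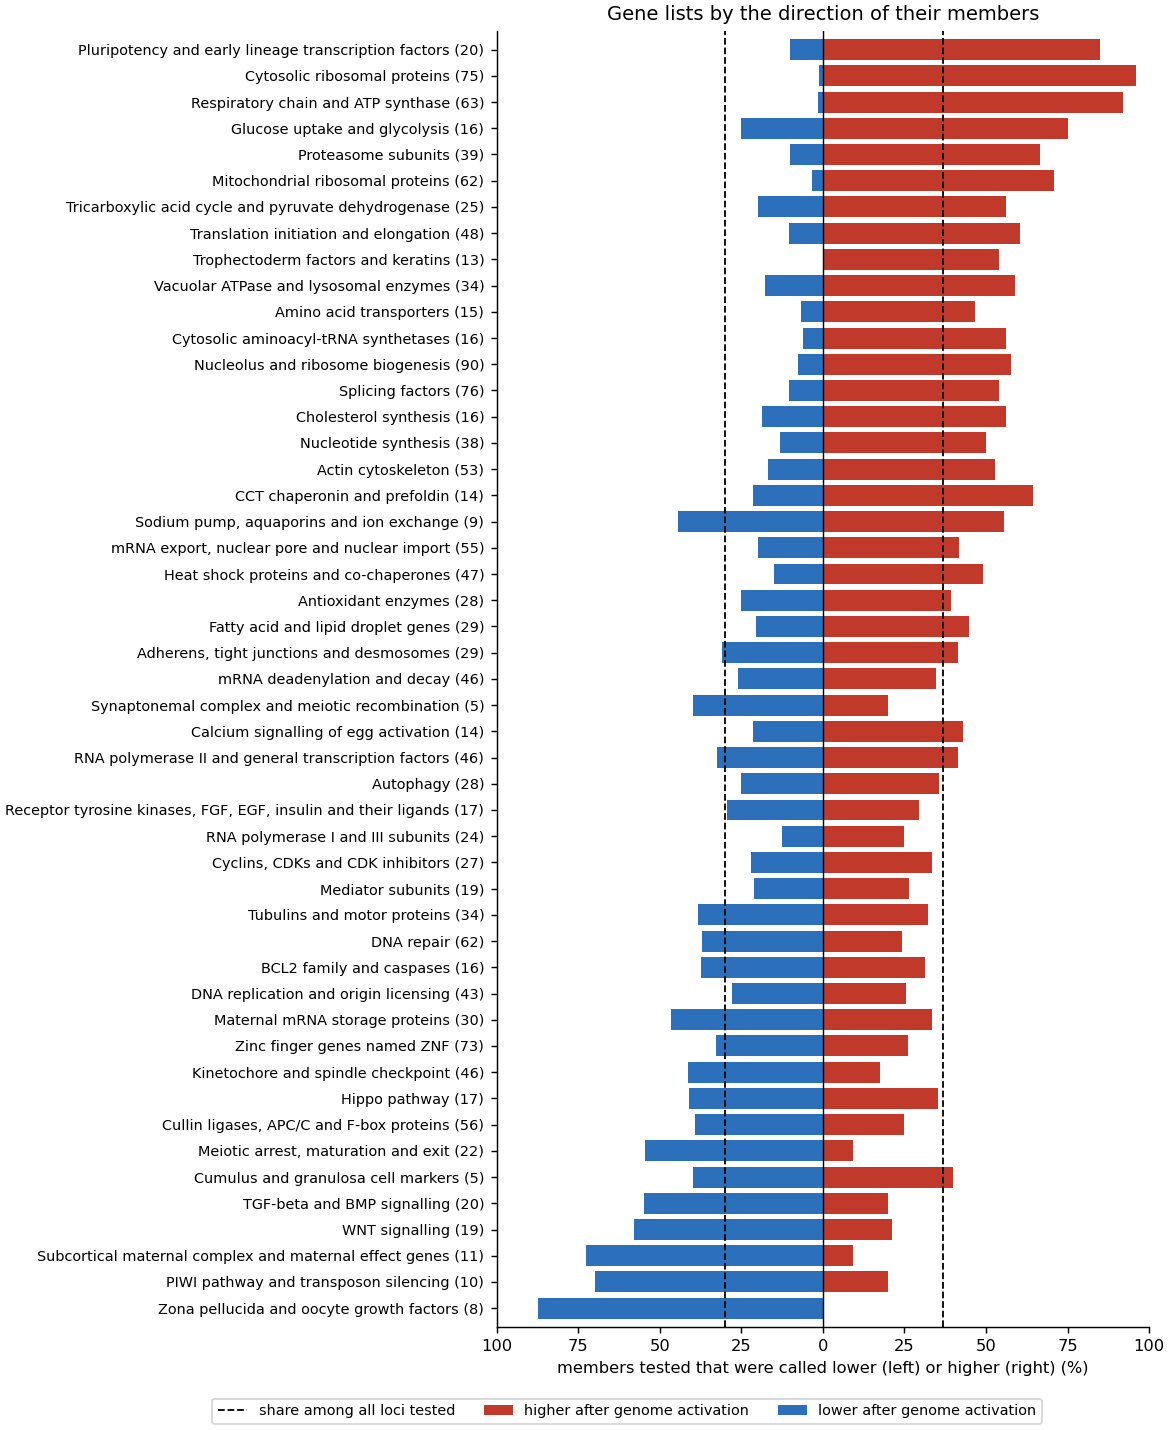
Share of the tested members of each gene list that rose (red, right) or fell (blue, left), in percent of the members tested (number in brackets), for lists with at least 5 of them, ordered by the median log2 difference of the list; dashed lines mark the shares among all loci tested, 36.9% and 29.9%. Ribosomal protein genes have the highest share of risers, 72 of 75, and zona pellucida and oocyte growth factor genes the highest share that fell, 7 of 8.

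The lists of the zona, of PIWI and transposon silencing and of maternal effect genes had the most negative medians. For the zona pellucida (the glycoprotein coat of the egg) and oocyte growth factors, 17 genes were listed, 16 were found by name and 8 passed the filter; 0 rose, 7 fell and 1 was not called, with a median log2 difference of -4.80. ZP2, a zona glycoprotein, was between 188 and 405 CPM (median 272) before EGA and between 0 and 18.3 CPM (median 0) after it, a log2 difference of -7.65 ± 0.62 (SE; adjusted p = 1.2e-09). ZP4, another coat protein, was between 23.5 and 286 CPM (median 179) before and between 0 and 15.4 CPM (median 3.48) after, a log2 difference of -5.18 ± 0.64 (SE; adjusted p = 4.9e-07). OOSP1, an oocyte-secreted protein, was between 134 and 506 CPM (median 296) before and between 0 and 47.1 CPM (median 0.357) after, a log2 difference of -7.85 ± 0.71 (SE; adjusted p = 6.2e-09). GDF9, the growth factor by which the oocyte directs its cumulus cells, was between 35.5 and 89.6 CPM (median 57.3) before and between 0 and 17.3 CPM (median 1.16) after, a log2 difference of -5.22 ± 0.61 (SE; adjusted p = 2.1e-07). None of these 4 genes overlapped between the periods.

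Genes of meiotic arrest and exit fell in part, WEE2 the most. Of 22 tested, 2 rose, 12 fell and 8 were not called (median -1.04), and 4 rose on values scaled to total reads. WEE2, the oocyte kinase that holds CDK1 inactive, was between 4280.4 and 44153 CPM (median 12285) before EGA and between 9.27 and 91.4 CPM (median 26.3) after it, a log2 difference of -9.19 ± 0.63 (SE; adjusted p = 1.3e-10). Before EGA its level was not even, with 31801 and 44153 CPM in the oocytes and 4280.4 and 5287 CPM in the 4-cell embryos. FBXO43, the inhibitor of the anaphase-promoting complex that maintains metaphase arrest, was between 22 and 43.8 CPM (median 34.2) before and between 0 and 3.85 CPM (median 0) after, a log2 difference of -5.38 ± 0.45 (SE; adjusted p = 1.8e-09). ADCY3, an adenylyl cyclase, was between 22.3 and 451 CPM (median 202) before and between 4.4 and 45.2 CPM (median 10.7) after, a log2 difference of -3.75 ± 0.54 (SE; adjusted p = 3.8e-06). The 2 members that rose were WEE1 and RPS6KA1. The kinase gene MOS, which drives metaphase arrest, did not pass the filter and had 7.32 to 43.2 CPM before EGA and at most 2.89 CPM after it.

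Maternal effect genes, whose products the embryo needs from its mother's oocyte, mostly fell. Of 11 tested, 1 rose, 8 fell and 2 were not called (median -3.16), and 2 rose on values scaled to total reads. NLRP9, an oocyte member of the NLR family, was between 35.9 and 200.3 CPM (median 104) before EGA and between 0 and 2.89 CPM (median 0) after it, a log2 difference of -6.61 ± 0.45 (SE; adjusted p = 1.3e-10). UHRF1, which guides DNA methylation to newly replicated DNA, was between 341 and 573 CPM (median 453) before and between 0 and 40.4 CPM (median 3.72) after, a log2 difference of -6.82 ± 0.58 (SE; adjusted p = 2.5e-09). NLRP5 and OOEP, core members of the subcortical maternal complex, did not pass the filter. NLRP5 had 4.38 to 45.1 CPM before EGA and at most 14.4 CPM after it, OOEP 5.33 to 21.3 CPM and at most 1.96 CPM. The member that rose was HSF1, the heat shock transcription factor.

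Genes of the PIWI pathway, in which small RNAs of the germline guide proteins to transposons, also mostly fell. Of 10 tested, 2 rose, 7 fell and 1 was not called (median -3.34). TDRD7, a Tudor-domain protein of germ granules, was between 22.3 and 45.3 CPM (median 38.7) before EGA and between 0 and 1.65 CPM (median 0) after it, with 3 reads in all after it (adjusted p = 2e-10). PNLDC1, the nuclease that trims PIWI-bound RNAs, was between 497 and 1301 CPM (median 955) before and between 9.28 and 181 CPM (median 23.9) after, a log2 difference of -5.07 ± 0.54 (SE; adjusted p = 6.2e-08). MAEL, a protein of the same pathway, was between 42.5 and 97.8 CPM (median 54.3) before and between 0 and 4.98 CPM (median 2.4) after, a log2 difference of -5.10 ± 0.48 (SE; adjusted p = 1.2e-08). The 2 members that rose, MOV10 and HSP90AA1, also act outside the germline. PIWIL3, the PIWI protein of oocytes, did not pass the filter: it had 0.438 to 19.7 CPM before EGA and no read after it.

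Genes of proteins that store and silence maternal mRNA included both falls and rises. Of 30 tested, 10 rose (33.3%), 14 fell (46.7%) and 6 were not called (median -0.50), against 36.9% and 29.9% of all loci. CPEB1, which binds the cytoplasmic polyadenylation element, was between 29.8 and 196 CPM (median 119.7) before EGA and between 0 and 32.7 CPM (median 0.386) after it, a log2 difference of -6.13 ± 0.68 (SE; adjusted p = 1.2e-07). DAZL, a germ cell translation factor, was between 11.3 and 95.1 CPM (median 62.7) before and between 0 and 2.05 CPM (median 0) after, with 2 reads in all after it (adjusted p = 7.7e-10). DAZL was at or near 0 in every sample after EGA. MSI1, the RNA-binding protein Musashi, was between 238 and 638 CPM (median 386) before and between 0 and 65.8 CPM (median 6.74) after, a log2 difference of -5.83 ± 0.82 (SE; adjusted p = 2.8e-06). ZAR1, required for the first cleavages, was between 12.7 and 149 CPM (median 85.5) before and between 0 and 49.1 CPM (median 0.634) after, a log2 difference of -5.13 ± 0.85 (SE; adjusted p = 2e-05), with an overlap between the periods. In the other direction, CAPRIN1, a protein of RNA granules, was between 0 and 3.99 CPM (median 0.836) before and between 58.7 and 209 CPM (median 105) after, a log2 difference of 5.75 ± 0.42 (SE; adjusted p = 3e-10). IGF2BP1, an mRNA-binding protein of embryos, was between 0 and 0.666 CPM (median 0) before and between 13.2 and 80.0 CPM (median 48.8) after, with 2 reads in all before it (adjusted p = 1.1e-09).

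Of the enzymes that shorten poly(A) tails and degrade mRNA, 16 rose, 12 fell and 18 were not called of 46 tested (median 0.27). BTG4, the adaptor that brings the deadenylase to maternal mRNAs, was between 434 and 958 CPM (median 630.1) before EGA and between 0 and 136 CPM (median 0.766) after it, a log2 difference of -8.35 ± 0.81 (SE; adjusted p = 1.7e-08). CNOT6L, a catalytic subunit of that deadenylase, was between 258 and 588 CPM (median 329) before and between 12.4 and 74.2 CPM (median 29.6) after, a log2 difference of -4.09 ± 0.39 (SE; adjusted p = 1.4e-08). YTHDF2, which marks methylated mRNAs for decay, was between 1.75 and 13.9 CPM (median 6.01) before and between 48.4 and 197 CPM (median 66.6) after, a log2 difference of 3.02 ± 0.35 (SE; adjusted p = 2.1e-07). EXOSC1, a subunit of the exosome that degrades RNA from its end, rose by 3.09 on the log2 scale. The shares of the decay list that rose and fell were thus near those of all loci, while BTG4 and CNOT6L fell without overlap.

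For several gene families, 1 form was listed as germline and a related one as general. These labels were not tested here, and forms listed as germline, CNOT6L and RBPMS2 among them, need not be limited to the germline. Of 16 such pairs listed, 8 had both members tested. The germline form fell in 6 of them and rose in 2. The general form rose in 3, fell in 1 and was not called in 4. In 3 pairs the germline form fell while the general form rose. Of all loci 36.9% rose and 29.9% fell, so the general forms rose in a share near that of all loci. The clearest exchange was between WEE2, described above, and WEE1, the CDK1 kinase of dividing cells, which was at 0 in every sample before EGA and between 1.63 and 26.4 CPM (median 11) after it, at least 6.37-fold higher after (adjusted p = 2e-06). YBX2, a germline RNA-binding protein, was between 7.45 and 201 CPM (median 95.6) before and between 3.29 and 20.5 CPM (median 13.2) after, a log2 difference of -2.88 ± 0.51 (SE; adjusted p = 4.7e-05), and YBX1, its general form, was between 12.7 and 217 CPM (median 98) before and between 181 and 646 CPM (median 365) after, a log2 difference of 1.95 ± 0.44 (SE; adjusted p = 0.00054). Both overlapped between the periods. LSM14B fell by 1.38 on the log2 scale and LSM14A rose by 1.31, each with an overlap, but neither call held when the oocyte stage was left out (adjusted p = 0.13 and 0.056), nor did that of LSM14B on values scaled to total reads (adjusted p = 0.088). EIF4E1B, the oocyte cap-binding protein, was between 1529 and 7551 CPM (median 5383) before and between 1.66 and 2398 CPM (median 5.33) after, a log2 difference of -8.94 ± 1.01 (SE; adjusted p = 1.4e-07), with an overlap, since 8C replicate 2 was the sample at the maximum after EGA and the other 9 reached at most 13.3 CPM. EIF4E, which binds the cap in all cells, was between 47.3 and 193 CPM (median 95.8) before and between 82.9 and 188 CPM (median 98.5) after and was not called (adjusted p = 0.47). KPNA7, an importin of oocytes, was between 43.6 and 108 CPM (median 77.6) before and between 0 and 25 CPM (median 0) after, a log2 difference of -5.78 ± 0.66 (SE; adjusted p = 1.5e-07), while KPNA2 was not called (adjusted p = 0.56). Of the 2 germline forms that rose, RBPMS2 was between 136 and 576 CPM (median 315) before and between 1745 and 5548 CPM (median 2484) after, a log2 difference of 2.65 ± 0.40 (SE; adjusted p = 6e-06). REC8, the meiotic cohesin, was between 0.886 and 25 CPM (median 10.6) before and between 18.1 and 166 CPM (median 83.4) after, a log2 difference of 2.74 ± 0.52 (SE; adjusted p = 0.0001), with an overlap, and its mitotic counterpart RAD21 fell by 1.31 on the log2 scale with an overlap, a call that did not hold on values scaled to total reads (adjusted p = 0.086) or without the oocyte stage (adjusted p = 0.074).

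**Figure D3:**
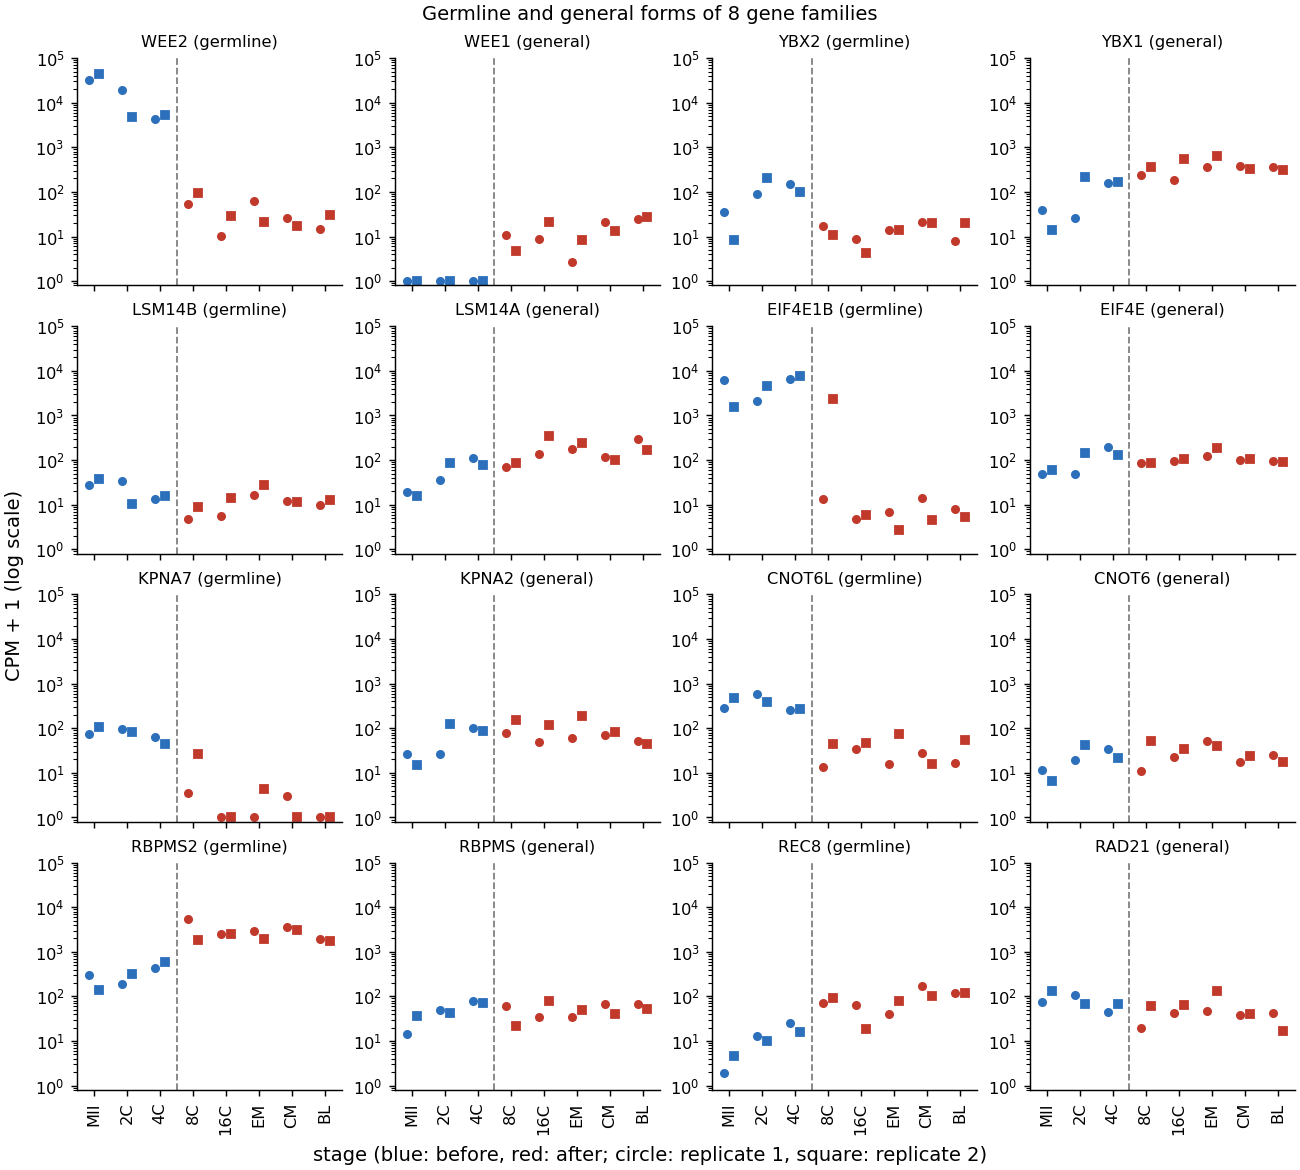
Levels of the forms listed as germline and as general in 8 gene families, in each of the 16 samples. The y axis is CPM + 1 on a log scale and the x axis the stage. Blue points are before and red points after EGA, circles are replicate 1 and squares replicate 2. WEE2 drops from at least 4280.4 CPM to at most 91.4 CPM while WEE1 appears, EIF4E1B stays high in 8C replicate 2, and RBPMS2 and REC8 rise.

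Genes of RNA polymerase II and its general factors rose and fell in shares near those of all loci: of 46 tested, 19 rose, 15 fell and 12 were not called (median 0.10). SUPT4H1, an elongation factor, was between 0 and 0.876 CPM (median 0.222) before EGA and between 20.5 and 114 CPM (median 56.3) after it, a log2 difference of 5.15 ± 0.45 (SE; adjusted p = 4.4e-09). TAF11, a subunit of TFIID, was between 0 and 23.4 CPM (median 11.1) before and between 119.9 and 335 CPM (median 166) after, a log2 difference of 4.86 ± 0.65 (SE; adjusted p = 1.3e-06). TBPL1, a relative of the TATA-binding protein, was between 91.7 and 246 CPM (median 149.6) before and between 13.1 and 66.4 CPM (median 16.2) after, a log2 difference of -3.29 ± 0.38 (SE; adjusted p = 2.1e-07). CDK7, the kinase of TFIIH, was between 20.8 and 58 CPM (median 36) before and between 0 and 19.7 CPM (median 10.1) after, a log2 difference of -2.67 ± 0.53 (SE; adjusted p = 0.00014). These 4 genes were separated between the periods, 2 in each direction, but lack of overlap was a ground for naming genes of a list. POLR2A, the largest subunit of the polymerase, was between 13.9 and 36.6 CPM (median 19.1) before and between 9.27 and 46.1 CPM (median 20.1) after and was not called (adjusted p = 0.32). Of 19 Mediator subunits, 5 rose, 4 fell and 10 were not called (median -0.21), and 1 fell on values scaled to total reads. Of 24 genes of RNA polymerases I and III, 6 rose, 3 fell and 15 were not called (median -0.07). POLR3F, a polymerase III subunit, was at 0 in every sample before and between 11.6 and 70.9 CPM (median 33) after, at least 18-fold higher after (adjusted p = 3.7e-10). RRN3, the initiation factor of polymerase I, was not called (adjusted p = 0.08), but was called lower with 8 stages in the model (adjusted p = 0.044).

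Splicing factors rose more often than they fell. Of 76 splicing factors, 41 rose, 8 fell and 27 were not called (median 1.36), and 4 fell on values scaled to total reads. SRSF3, a serine and arginine rich splicing factor, was between 0.694 and 28.6 CPM (median 9.43) before EGA and between 91.6 and 504 CPM (median 174) after it, a log2 difference of 4.02 ± 0.50 (SE; adjusted p = 5.3e-07). TRA2B, a splicing activator, was between 0 and 20.3 CPM (median 1.32) before and between 39.6 and 145 CPM (median 80.0) after, a log2 difference of 4.71 ± 0.55 (SE; adjusted p = 2.2e-07). SF3B1, a core subunit of the U2 particle, was between 22.7 and 114 CPM (median 45.2) before and between 37.1 and 173 CPM (median 78.4) after and was not called (adjusted p = 0.49). Of 55 genes of mRNA export, the nuclear pore and nuclear import, 23 rose, 11 fell and 21 were not called (median 0.80), a share of rises near that of all loci, and 5 fell with that scaling. XPO5, the exporter of microRNA precursors, was between 8.33 and 43 CPM (median 24.2) before and between 503 and 3087 CPM (median 1763) after, a log2 difference of 5.53 ± 0.43 (SE; adjusted p = 7e-10). IPO7, an importin that carries ribosomal proteins, was between 3.07 and 37.3 CPM (median 7.12) before and between 179.9 and 1108 CPM (median 333) after, a log2 difference of 4.77 ± 0.45 (SE; adjusted p = 1.3e-08). RAN, the GTPase that gives nuclear transport its direction, was between 872 and 1949 CPM (median 1289) before and between 9114 and 24523 CPM (median 18677) after, a log2 difference of 3.21 ± 0.44 (SE; adjusted p = 2.1e-06). The pore proteins NUP88 and NUP35 fell by 2.46 and 2.40 on the log2 scale.

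Cytosolic ribosomal protein genes had the highest share of rises of all lists. For these, 81 genes were listed, 79 were found by name and 75 passed the filter; 72 rose, 1 fell and 2 were not called, with a median log2 difference of 3.97 and no overlap for 56 of them. RPL23 was between 0.592 and 24.6 CPM (median 6.89) before EGA and between 435 and 1086 CPM (median 663) after it, a log2 difference of 6.40 ± 0.51 (SE; adjusted p = 8.8e-10). RPS19 was between 0 and 27.3 CPM (median 0.526) before and between 40.9 and 939.8 CPM (median 239.9) after, a log2 difference of 6.26 ± 0.65 (SE; adjusted p = 4e-08). RPL4 was between 46.1 and 110.1 CPM (median 60.4) before and between 144 and 646 CPM (median 357) after, a log2 difference of 1.89 ± 0.31 (SE; adjusted p = 1.9e-05). RPS3 was between 36.8 and 108 CPM (median 56.2) before and between 73.4 and 586 CPM (median 332) after, a log2 difference of 1.82 ± 0.42 (SE; adjusted p = 0.00063), with an overlap. The exceptions were RPS21, which fell (log2 difference -1.12, adjusted p = 0.015, with an overlap, and no ribosomal protein gene fell on values scaled to total reads), and RPS2 and RPL12, which were not called. Ribosomal protein genes have many near-identical copies in the genome, so that the split of reads among copies is uncertain.

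Genes of ribosome assembly in the nucleolus rose more often than they fell. Of 90 tested, 52 rose, 7 fell and 31 were not called (median 1.39), and 4 fell on values scaled to total reads. NOP56, a core protein of the particles that methylate ribosomal RNA, was between 0 and 8.58 CPM (median 3.7) before EGA and between 206 and 781 CPM (median 370.3) after it, a log2 difference of 6.31 ± 0.48 (SE; adjusted p = 6e-10). FBL, fibrillarin, the methyltransferase of those particles, was between 0 and 11.2 CPM (median 5.86) before and between 23.2 and 172 CPM (median 86.3) after, a log2 difference of 3.85 ± 0.54 (SE; adjusted p = 2.5e-06). NCL, nucleolin, was between 7.09 and 71.5 CPM (median 38.2) before and between 81.7 and 311 CPM (median 161) after, a log2 difference of 2.04 ± 0.38 (SE; adjusted p = 7.4e-05). NPM1, nucleophosmin, was between 53.5 and 175 CPM (median 82.3) before and between 77.8 and 283 CPM (median 211) after and was not called (adjusted p = 0.18), although it was called higher on values scaled to total reads (adjusted p = 0.012) and without MII replicate 2 (adjusted p = 0.026) or both MII replicates (adjusted p = 0.0038).

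Of 48 translation initiation and elongation factors, 29 rose, 5 fell and 14 were not called (median 1.87), and of 16 cytosolic aminoacyl-tRNA synthetases, 9 rose, 1 fell and 6 were not called (median 1.42). No synthetase fell on values scaled to total reads. The summed level of the translation factor list went the other way from its counts. It was between 8172 and 21608 CPM (median 16293) before EGA and between 7025 and 14399 CPM (median 10513) after it, which was not tested. EEF1B2, an exchange factor of elongation, was between 0 and 33.4 CPM (median 14.8) before EGA and between 223 and 777 CPM (median 494) after it, a log2 difference of 5.23 ± 0.64 (SE; adjusted p = 4.5e-07). EIF1AX, a factor of start codon scanning and a known transcript of genome activation in cattle, was between 110.4 and 449 CPM (median 130.1) before and between 553 and 2654 CPM (median 1604) after, a log2 difference of 2.71 ± 0.43 (SE; adjusted p = 1.2e-05). EIF5B, which joins the ribosomal subunits, was between 712 and 2263 CPM (median 1849) before and between 186 and 313 CPM (median 239.5) after, a log2 difference of -3.15 ± 0.36 (SE; adjusted p = 1.9e-07). QARS, the glutaminyl-tRNA synthetase, was between 0 and 2.46 CPM (median 1.01) before and between 24.7 and 112 CPM (median 62) after, a log2 difference of 4.81 ± 0.44 (SE; adjusted p = 6.9e-09).

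In protein breakdown, proteasome subunits mostly rose and ligase genes moved both ways. Of 39 proteasome genes, 26 rose, 4 fell and 9 were not called (median 2.25), and 2 fell on values scaled to total reads. PSMA1, a subunit of the core particle, was at 0 in every sample before EGA and between 12.4 and 90.3 CPM (median 51.4) after it, at least 23-fold higher after (adjusted p = 2.8e-10). PSMB4, a subunit of the catalytic ring, was between 0.694 and 6.66 CPM (median 2.44) before and between 13.9 and 115 CPM (median 40.4) after, a log2 difference of 3.19 ± 0.44 (SE; adjusted p = 2.2e-06). Of 56 cullin ligases, anaphase-promoting complex subunits and F-box proteins, which select proteins for the proteasome, 14 rose (25%), 22 fell (39.3%) and 20 were not called (median -0.91). The shares of all loci were 36.9% and 29.9%. FBXL4 was between 25.7 and 51.3 CPM (median 36.1) before and between 0 and 4.81 CPM (median 0) after, a log2 difference of -5.20 ± 0.49 (SE; adjusted p = 1e-08), and CUL2, a cullin scaffold, was between 0 and 1.39 CPM (median 0.219) before and between 2.94 and 52.6 CPM (median 31.2) after, a log2 difference of 4.27 ± 0.51 (SE; adjusted p = 3e-07).

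Of 14 tested genes of the CCT chaperonin, which folds actin and tubulin, of prefoldin, which hands proteins to it, and of their cofactors, 9 rose, 3 fell and 2 were not called (median 1.00). The summed level of this list was lower after EGA, between 895 and 2056 CPM (median 1385) against between 2736 and 4440 CPM (median 2900) before it. The sums were not tested. CCT6A was at 0 in every sample before EGA and between 36.7 and 281 CPM (median 114) after it, at least 61.7-fold higher after (adjusted p = 3.7e-12). TCP1, the alpha subunit of the same ring, was between 2344 and 4089 CPM (median 2590.1) before and between 329 and 969.6 CPM (median 529) after, a log2 difference of -2.90 ± 0.35 (SE; adjusted p = 3.7e-07). The other 7 subunits of the ring rose, CCT5 with a call lost without MII replicate 1 (adjusted p = 0.06) and without the oocyte stage (adjusted p = 0.1). Neither CCT6A nor TCP1 overlapped between the periods. Of 47 heat shock proteins and co-chaperones, 23 rose, 7 fell and 17 were not called (median 0.78). HSPA9, the mitochondrial member of the HSP70 family, was between 4.38 and 29.2 CPM (median 20.8) before and between 161 and 677 CPM (median 324) after, a log2 difference of 3.90 ± 0.32 (SE; adjusted p = 1.7e-09). HSPA8, the constitutive HSP70 of the cytosol, was between 10.2 and 101 CPM (median 60.5) before and between 163 and 619 CPM (median 252) after, a log2 difference of 2.17 ± 0.36 (SE; adjusted p = 1.8e-05). HSP90AB1 was not called (adjusted p = 0.92).

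Of 34 genes of the vacuolar proton pump and lysosomal enzymes, 20 rose, 6 fell and 8 were not called (median 1.64). ATP6V1D, a subunit of the pump, was between 0 and 3.55 CPM (median 1.23) before EGA and between 45.2 and 167 CPM (median 112) after it, a log2 difference of 5.63 ± 0.46 (SE; adjusted p = 1.5e-09). Autophagy genes rose and fell in shares near those of all loci: of 28 tested, 10 rose, 7 fell and 11 were not called (median 0.07). TAX1BP1, an autophagy receptor, was between 1693 and 10740.2 CPM (median 3886) before and between 44.2 and 1016 CPM (median 84.3) after, a log2 difference of -5.61 ± 0.56 (SE; adjusted p = 2.6e-08). GABARAPL1, which lines the autophagosome membrane, was between 0 and 2.78 CPM (median 0.666) before and between 12.4 and 88 CPM (median 31) after, a log2 difference of 4.34 ± 0.52 (SE; adjusted p = 3.2e-07).

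**Figure D4:**
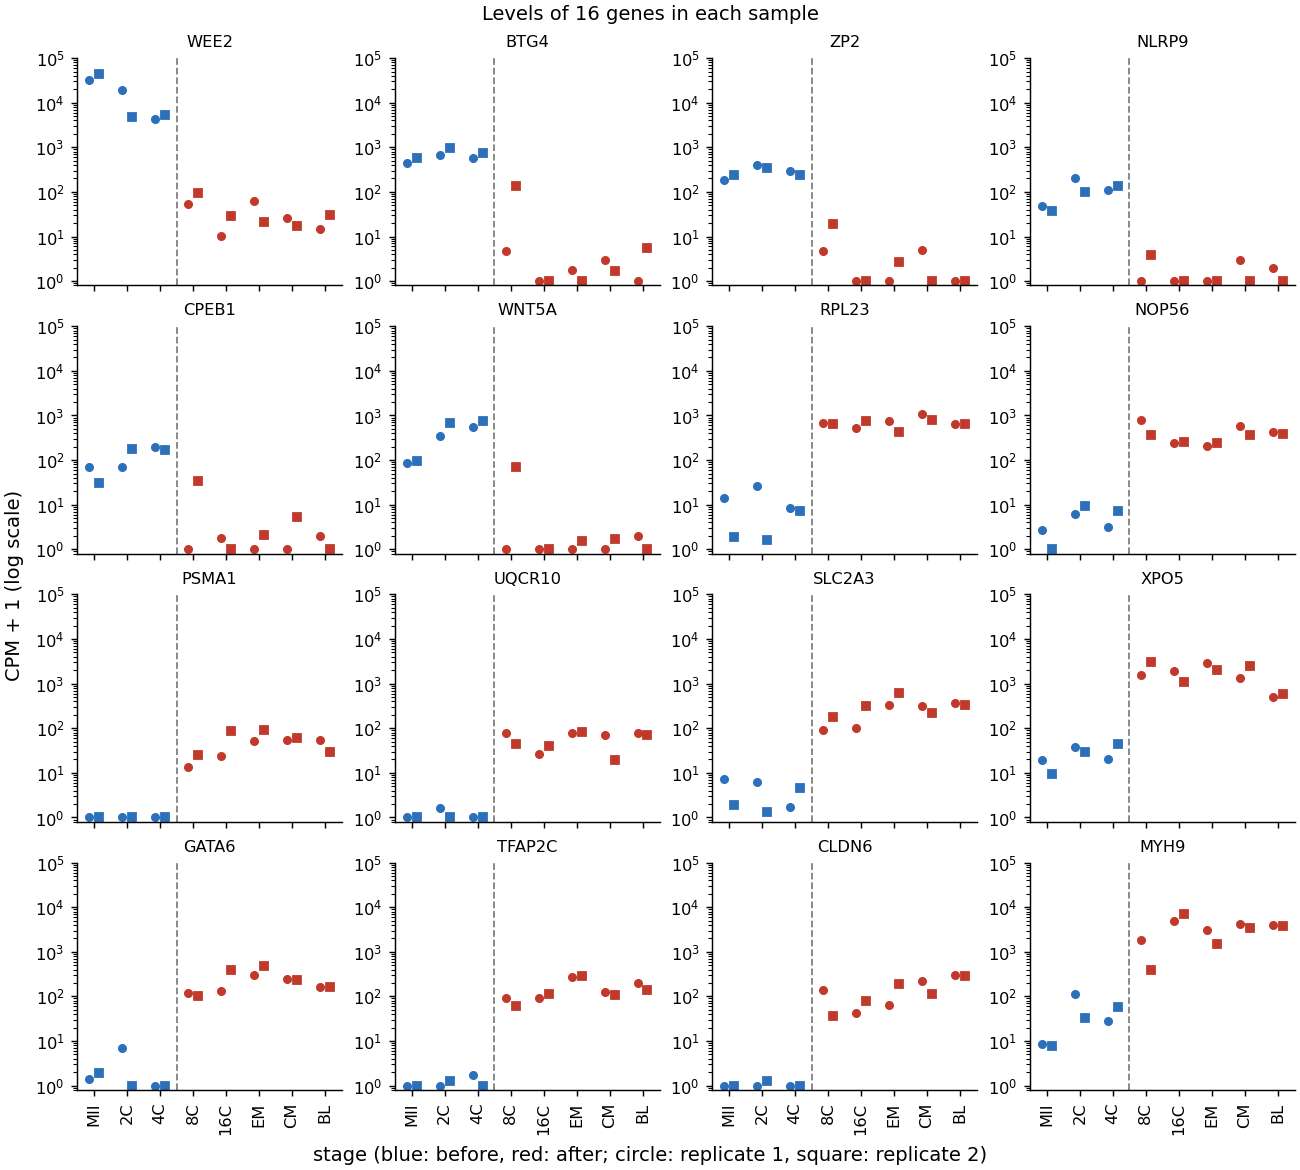
Levels of 16 of the genes described in each sample; the y axis is CPM + 1 on a log scale, the x axis the stage, blue points are before and red points after EGA, circles are replicate 1 and squares replicate 2. The 6 genes that fell are lower in every 8-cell sample than before EGA for all but CPEB1, whose 8C replicate 2 at 32.7 CPM overlaps, and 8C replicate 2 is the higher 8-cell sample for each of them. The 10 genes that rose are higher in each of the 10 samples after EGA than in each of the 6 before it. Lack of overlap was a ground for naming genes of a list.

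Mitochondrial energy genes encoded in the nucleus rose almost as uniformly as ribosomal proteins. For the respiratory chain and ATP synthase, 81 genes were listed, 80 were found by name and 63 passed the filter; 58 rose, 1 fell and 4 were not called, with a median log2 difference of 3.11. UQCR10, a subunit of complex III, was between 0 and 0.666 CPM (median 0) before EGA and between 18.6 and 81.4 CPM (median 70.6) after it, with 1 read in all before it (adjusted p = 1.3e-10). NDUFA13, of complex I, was between 0 and 1.18 CPM (median 0.307) before and between 14.7 and 83.7 CPM (median 42.2) after, a log2 difference of 4.91 ± 0.42 (SE; adjusted p = 2.9e-09). COX5A, of cytochrome oxidase, was between 0.876 and 10.4 CPM (median 4.17) before and between 27.8 and 171 CPM (median 86.9) after, a log2 difference of 3.76 ± 0.38 (SE; adjusted p = 3.2e-08). ATP5E, of the ATP synthase, was between 0 and 2.07 CPM (median 0.922) before and between 16.2 and 91.3 CPM (median 69.9) after, a log2 difference of 5.09 ± 0.44 (SE; adjusted p = 3.6e-09). These 4 subunits reached at most 10.4 CPM in any sample before EGA. NDUFS1, another complex I subunit, was between 7.89 and 26.6 CPM (median 20.1) before and between 17.2 and 59.2 CPM (median 41.3) after, a rise of 0.80 on the log2 scale with an overlap. Its call was lost under 14 alternatives, 10 of which left out 1 sample (adjusted p between 0.052 and 0.17 over the 14). The member that fell, COX6A1 (log2 difference -0.78, adjusted p = 0.028), overlapped between the periods, and no member fell on values scaled to total reads. Of 62 mitochondrial ribosomal proteins, 44 rose, 2 fell and 16 were not called (median 2.13), and 1 fell with that scaling. MRPL21 was between 0 and 3.47 CPM (median 0.529) before and between 26.3 and 94 CPM (median 71.8) after, a log2 difference of 4.86 ± 0.46 (SE; adjusted p = 1.1e-08).

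In the tricarboxylic acid cycle and its entry through pyruvate dehydrogenase, 14 rose, 5 fell and 6 were not called of 25 tested (median 2.01). PDHB, the beta subunit of pyruvate dehydrogenase, was between 0 and 3.47 CPM (median 0.947) before EGA and between 51 and 254 CPM (median 149.7) after it, a log2 difference of 5.83 ± 0.43 (SE; adjusted p = 3.3e-10). IDH3B, of isocitrate dehydrogenase, was between 0 and 3.55 CPM (median 0.333) before and between 30.9 and 94.3 CPM (median 61.4) after, a log2 difference of 5.10 ± 0.45 (SE; adjusted p = 4.6e-09). PDK1 and PDK3, the kinases that switch pyruvate dehydrogenase off, were among those that fell. PDK1 was between 19.7 and 57.2 CPM (median 34.7) before and between 0 and 19.1 CPM (median 5.12) after, a log2 difference of -3.18 ± 0.57 (SE; adjusted p = 4.7e-05), and PDK3 between 18.6 and 134 CPM (median 49.9) before and between 2.94 and 32.7 CPM (median 14.4) after, a log2 difference of -2.48 ± 0.47 (SE; adjusted p = 0.0001). PDHA1, the alpha subunit, also fell, by 1.54 on the log2 scale, with an overlap.

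Glucose uptake and glycolysis had no uncalled member: of 16 tested, 12 rose and 4 fell (median 2.70). SLC2A3, the high-affinity glucose transporter of the early embryo, was between 0.296 and 6.2 CPM (median 2.28) before EGA and between 91.6 and 609 CPM (median 314) after it, a log2 difference of 6.06 ± 0.45 (SE; adjusted p = 3.6e-10). SLC2A1, the common glucose transporter, was between 0 and 6.94 CPM (median 2.11) before and between 13.5 and 122 CPM (median 50.7) after, a log2 difference of 3.62 ± 0.55 (SE; adjusted p = 7.4e-06). SLC2A5, a fructose transporter, was at 0 in every sample before and between 3.85 and 164 CPM (median 81.3) after, at least 40.2-fold higher after (adjusted p = 8.8e-09). The lactate dehydrogenase subunits went opposite ways: LDHB was between 0 and 8.65 CPM (median 1.67) before and between 18.6 and 132 CPM (median 72.3) after, a log2 difference of 4.25 ± 0.52 (SE; adjusted p = 3.7e-07). LDHA was between 5.7 and 94.4 CPM (median 62.3) before and between 0.773 and 61.9 CPM (median 5.25) after, a log2 difference of -2.56 ± 0.72 (SE; adjusted p = 0.0038), with an overlap. GAPDH did not pass the filter and had at most 5.87 CPM in any sample. TBP, BAX and SCD had no read in any of the 16 samples, so a locus with few or no reads here does not show that the gene was silent.

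Amino acid transporters and nucleotide synthesis genes rose more often than they fell. Of 15 amino acid transporters, 7 rose, 1 fell and 7 were not called (median 1.44). SLC1A1, a glutamate transporter, was between 1.31 and 11.3 CPM (median 2.58) before EGA and between 22.1 and 569 CPM (median 215) after it, a log2 difference of 5.29 ± 0.53 (SE; adjusted p = 2.7e-08). SLC7A2, a carrier of cationic amino acids, was between 20.6 and 78.4 CPM (median 63.8) before and between 0 and 21 CPM (median 0) after, a log2 difference of -5.00 ± 0.74 (SE; adjusted p = 5.5e-06). Of 38 nucleotide synthesis genes, 19 rose, 5 fell and 14 were not called (median 1.17). PPAT, the committed step of purine synthesis, was between 0 and 2.37 CPM (median 0.307) before and between 7.42 and 100.2 CPM (median 46.2) after, a log2 difference of 4.79 ± 0.49 (SE; adjusted p = 3.2e-08). The mitochondrial folate enzyme MTHFD1L was between 0 and 0.694 CPM (median 0) before and between 51.8 and 150.1 CPM (median 73.2) after, with 2 reads in all before it (adjusted p = 9.4e-12), while its cytosolic relative MTHFD1 was between 29.5 and 83.9 CPM (median 47.6) before and between 0 and 35.4 CPM (median 4.37) after, a log2 difference of -3.69 ± 0.65 (SE; adjusted p = 4e-05). TYMS, which makes thymidylate, was not called (adjusted p = 0.97).

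Of 16 cholesterol synthesis genes, 9 rose, 3 fell and 4 were not called (median 1.35). IDI1, an isomerase of the pathway, was between 0 and 4.86 CPM (median 1.04) before EGA and between 19.9 and 85.7 CPM (median 43) after it, a log2 difference of 4.32 ± 0.55 (SE; adjusted p = 6.9e-07). In the other direction, HMGCS1 and INSIG1 were among the 3 that fell. HMGCS1, an early enzyme, was between 105 and 241 CPM (median 127) before and between 2.86 and 77.8 CPM (median 10.6) after, a log2 difference of -3.72 ± 0.55 (SE; adjusted p = 5.1e-06). INSIG1, which restrains the pathway, was between 30.7 and 78.5 CPM (median 41) before and between 0 and 7.86 CPM (median 1.25) after, a log2 difference of -4.80 ± 0.54 (SE; adjusted p = 1.2e-07). Of 29 fatty acid and lipid droplet genes, 13 rose, 6 fell and 10 were not called (median 0.50), and without the oocyte stage 8 rose. ELOVL6, which elongates saturated fatty acids, was between 1.18 and 13.6 CPM (median 2.66) before and between 364 and 6693 CPM (median 1642) after, a log2 difference of 8.26 ± 0.60 (SE; adjusted p = 3e-10). ELOVL4, which makes very long chains, was between 74.6 and 124 CPM (median 87.5) before and between 0 and 15.4 CPM (median 1.21) after, a log2 difference of -5.47 ± 0.63 (SE; adjusted p = 1.9e-07). PLIN2, the lipid droplet coat protein, was not called (adjusted p = 0.44). Among 28 antioxidant genes, 11 rose, 7 fell and 10 were not called (median 0.54). TXN and TXN2, the cytosolic and mitochondrial thioredoxins, rose, TXN from between 0 and 8.65 CPM (median 2.03) before to between 9.62 and 205 CPM (median 77.3) after, a log2 difference of 4.46 ± 0.57 (SE; adjusted p = 8.2e-07). In the other direction, SESN2, a stress-induced sestrin, was between 214 and 1213 CPM (median 599.6) before and between 33.4 and 118 CPM (median 47.3) after, a log2 difference of -3.77 ± 0.44 (SE; adjusted p = 2.2e-07).

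**Figure D5:**
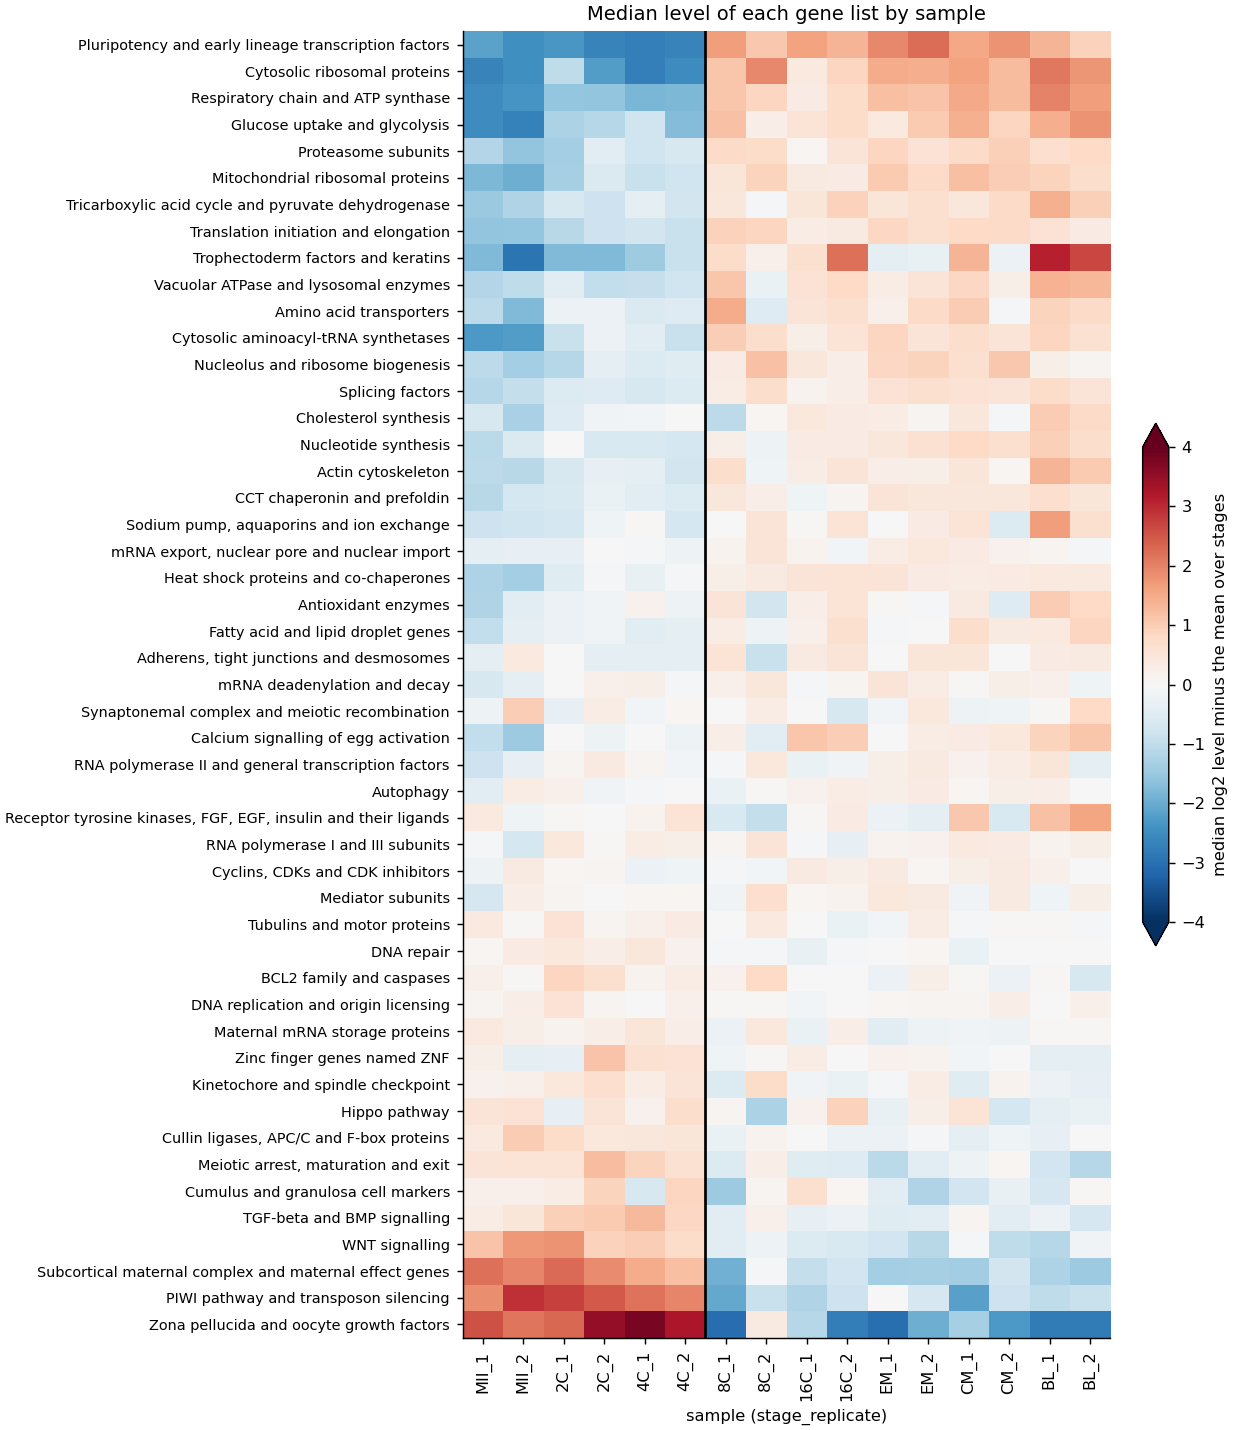
Median level of the tested members of each gene list with at least 5 of them, in each sample (columns, stage and replicate; the black line separates the periods); colour is the median log2 level minus the gene's mean over the 8 stages, blue for below and red for above, and lists are ordered by their median log2 difference. Ribosomal, respiratory and pluripotency lists turn from blue to red at the 8-cell stage and zona, PIWI and maternal effect lists the opposite way, with the zona list (0.35) and the maternal effect list (-0.06) near 0 in 8C replicate 2 and the PIWI list (0.03) near 0 in EM replicate 1, while replication, repair and cyclin lists stay pale throughout.

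Genes of DNA replication and repair had medians below that of all loci. Of 43 DNA replication and origin licensing genes, 11 rose, 12 fell and 20 were not called (median -0.38), and with total-read scaling 7 fell. ORC5, of the origin recognition complex, was between 32.6 and 65.7 CPM (median 56.4) before EGA and between 1.47 and 11.6 CPM (median 2.23) after it, a log2 difference of -4.18 ± 0.44 (SE; adjusted p = 4.4e-08). GINS1, of the replicative helicase, was between 0 and 25 CPM (median 7.76) before and between 29.8 and 205 CPM (median 107) after, a log2 difference of 3.94 ± 0.63 (SE; adjusted p = 1.4e-05). PCNA, the sliding clamp, was between 79.2 and 419 CPM (median 114) before and between 40.2 and 311 CPM (median 119) after and was not called (adjusted p = 0.1), but was called lower by DESeq2 (adjusted p = 0.028) and without 4C replicate 1 (adjusted p = 0.047). MCM3, of the replicative helicase, was not called (adjusted p = 0.93). Of 62 DNA repair genes, 15 rose, 23 fell and 24 were not called (median -0.34), and on values scaled to total reads 17 rose and 17 fell. RAD51C, a recombination protein, was between 114 and 217 CPM (median 183) before and between 1.24 and 41.1 CPM (median 9.75) after, a log2 difference of -4.54 ± 0.57 (SE; adjusted p = 6.3e-07). NEIL3, a glycosylase of oxidised bases, was between 39.6 and 184 CPM (median 109) before and between 0 and 15.5 CPM (median 3.52) after, a log2 difference of -5.11 ± 0.68 (SE; adjusted p = 1.3e-06). ERCC1, of nucleotide excision repair, was between 0 and 49.1 CPM (median 30.3) before and between 70.5 and 428 CPM (median 207) after, a log2 difference of 3.87 ± 0.78 (SE; adjusted p = 0.00019).

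Of 46 kinetochore and spindle checkpoint genes, 8 rose, 19 fell and 19 were not called (median -0.68). MLF1IP, a kinetochore protein also known as CENPU, was between 316 and 2215 CPM (median 633) before EGA and between 18.6 and 81.9 CPM (median 43.7) after it, a log2 difference of -4.57 ± 0.48 (SE; adjusted p = 4.5e-08). AURKC, the aurora kinase of meiosis, was between 34.4 and 94.5 CPM (median 57.8) before and between 4.64 and 33.7 CPM (median 8.55) after, a log2 difference of -2.88 ± 0.45 (SE; adjusted p = 9.6e-06). BUB1, a checkpoint kinase, was not called (adjusted p = 0.22). Of 34 tubulins and motor proteins, 11 rose, 13 fell and 10 were not called (median -0.28). TUBA1C, an alpha-tubulin, was between 203 and 4242 CPM (median 2363) before and between 12803 and 44674 CPM (median 27683) after, a log2 difference of 3.77 ± 0.61 (SE; adjusted p = 1.4e-05), although alpha-tubulin genes share nearly identical sequences and reads may be split among them. KIF18A, a kinesin that aligns chromosomes, was between 61.1 and 126 CPM (median 91.3) before and between 0 and 13.2 CPM (median 3.64) after, a log2 difference of -4.84 ± 0.52 (SE; adjusted p = 7.2e-08). Of 27 cyclins, CDKs and their inhibitors, 9 rose, 6 fell and 12 were not called (median -0.12). RB1 and RBL2, which restrain entry into S phase, both fell: RB1 was between 8.65 and 25.7 CPM (median 16.2) before and between 0 and 8.23 CPM (median 1.46) after, a log2 difference of -3.38 ± 0.55 (SE; adjusted p = 1.5e-05). RBL2 was between 76.2 and 267 CPM (median 165) before and between 5.13 and 86.6 CPM (median 10.8) after, a log2 difference of -3.77 ± 0.50 (SE; adjusted p = 1.3e-06). CCNL1, a cyclin of RNA processing, was between 1.75 and 8.6 CPM (median 3.11) before and between 35.6 and 71.7 CPM (median 48.8) after, a log2 difference of 3.08 ± 0.36 (SE; adjusted p = 2e-07). CCNA2 was not called (adjusted p = 0.081), but was called lower with 8 stages in the model (adjusted p = 0.033) and without CM replicate 2 (adjusted p = 0.04).

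Genes that decide cell survival rose and fell in shares near those of all loci, 36.9% and 29.9%. Of 16 BCL2 family and caspase genes, 5 rose (31.25%), 6 fell (37.5%) and 5 were not called (median -0.37). BCL2L10, the survival factor abundant in oocytes, was between 28.3 and 127 CPM (median 88.6) before EGA and between 0 and 27.9 CPM (median 0) after it, a log2 difference of -6.09 ± 0.67 (SE; adjusted p = 9.9e-08). MCL1, a survival factor of dividing cells, was between 17.3 and 38.7 CPM (median 28.3) before and between 89.5 and 373 CPM (median 155) after, a log2 difference of 2.11 ± 0.32 (SE; adjusted p = 7.9e-06). TNFRSF10A, a death receptor, was between 18.8 and 76.2 CPM (median 58.5) before and between 0 and 7.7 CPM (median 0) after, a log2 difference of -5.67 ± 0.51 (SE; adjusted p = 6.8e-09). DIABLO, which counters inhibitors of caspases, was between 1.84 and 9.32 CPM (median 4.11) before and between 17.8 and 99.1 CPM (median 37.4) after, a log2 difference of 2.48 ± 0.44 (SE; adjusted p = 5.1e-05).

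Genes of the actin cytoskeleton rose more often than they fell. Of 53 actin cytoskeleton genes, 28 rose, 9 fell and 16 were not called (median 1.11). MYH9, the non-muscle myosin heavy chain, was between 6.57 and 114 CPM (median 29.7) before EGA and between 399 and 6964 CPM (median 3549) after it, a log2 difference of 6.22 ± 0.56 (SE; adjusted p = 6.1e-09). ROCK2, the kinase that activates that myosin, was between 0 and 5.99 CPM (median 0.882) before and between 80.8 and 383 CPM (median 146) after, a log2 difference of 6.09 ± 0.47 (SE; adjusted p = 5.9e-10). WASF3, a regulator of actin branching, was between 514 and 2249 CPM (median 1186) before and between 29.5 and 171 CPM (median 96.3) after, a log2 difference of -4.04 ± 0.43 (SE; adjusted p = 7e-08). ACTB, beta-actin, was between 156 and 424 CPM (median 281) before and between 299.8 and 8116 CPM (median 925) after, a log2 difference of 1.49 ± 0.57 (SE; adjusted p = 0.025), with an overlap and its highest values in the blastocysts (8116 and 3793 CPM). ACTB was not called without the blastocyst stage (adjusted p = 0.059), without the oocyte stage (adjusted p = 0.065) or without 4C replicate 2 (adjusted p = 0.055).

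Of 29 genes of cell junctions, 12 rose, 9 fell and 8 were not called (median 0.38). CDH1, E-cadherin, which holds the compacting blastomeres together, was between 17.5 and 42.1 CPM (median 27.6) before EGA and between 179.9 and 1285 CPM (median 410.3) after it, a log2 difference of 3.40 ± 0.40 (SE; adjusted p = 2.7e-07). CLDN6, a tight junction claudin, was between 0 and 0.296 CPM (median 0) before and between 35.6 and 307 CPM (median 124) after, with 1 read in all before it (adjusted p = 1.2e-10). JUP, plakoglobin of adherens junctions and desmosomes, was between 0 and 2.22 CPM (median 0.219) before and between 45.7 and 656 CPM (median 201) after, a log2 difference of 6.80 ± 0.60 (SE; adjusted p = 4e-09). Another cadherin, CDH3, was between 23.1 and 150.4 CPM (median 49) before and between 0 and 10.3 CPM (median 1.94) after, a log2 difference of -4.95 ± 0.60 (SE; adjusted p = 3.8e-07). Of the connexins, which form gap junctions, GJC1 was between 85 and 611 CPM (median 259) before and between 0 and 84.6 CPM (median 12.3) after, a log2 difference of -4.98 ± 0.77 (SE; adjusted p = 8.5e-06), and GJB5 was between 0 and 5.56 CPM (median 2.12) before and between 10.6 and 3362 CPM (median 866) after, a log2 difference of 7.20 ± 0.98 (SE; adjusted p = 1.7e-06). TJP1, a scaffold of tight junctions, was not called (adjusted p = 0.47).

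Of the sodium pump, which drives fluid into the blastocyst cavity, the beta subunits moved in opposite directions. Of 9 pump, aquaporin and ion exchange genes, 5 rose and 4 fell. ATP1B1 was between 301 and 531 CPM (median 448) before EGA and between 6.15 and 22 CPM (median 13.1) after it, a log2 difference of -5.54 ± 0.38 (SE; adjusted p = 1.4e-10). ATP1B3 was between 0 and 2.46 CPM (median 0.776) before and between 24 and 146 CPM (median 75.1) after, a log2 difference of 5.17 ± 0.43 (SE; adjusted p = 1.6e-09). Neither overlapped between the periods. AQP3, a water and glycerol channel, was between 0 and 2.46 CPM (median 0) before and between 12.4 and 62.6 CPM (median 29.7) after, a log2 difference of 4.48 ± 0.44 (SE; adjusted p = 2.1e-08).

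Transcription factors of pluripotency and the early lineages had 1 of the 2 largest medians, with ribosomal proteins. Of 44 listed, 37 were found and 20 tested: 17 rose, 2 fell and 1 was not called, with a median log2 difference of 4.06, or 3.80 when members without a read before EGA are set to the bound that 3 reads allow, which is below the 3.97 of ribosomal proteins, and 4.25 against 4.40 on values scaled to total reads. POU5F1 (OCT4), the central pluripotency factor, was between 122 and 295 CPM (median 245) before EGA and between 2498 and 5926 CPM (median 3521) after it, a log2 difference of 3.53 ± 0.36 (SE; adjusted p = 3.2e-08). NANOG was at 0 in every sample before and between 0 and 73.4 CPM (median 15.7) after, at least 13.8-fold higher after (adjusted p = 6.8e-05), with no read in 16C replicate 2. KLF17, a Kruppel-like factor of early embryos, was between 0 and 1.84 CPM (median 0.554) before and between 20.5 and 3582 CPM (median 545) after, a log2 difference of 7.77 ± 0.78 (SE; adjusted p = 2.7e-08). PRDM14, a regulator of pluripotency, was between 0 and 22.2 CPM (median 1.28) before and between 334 and 1314 CPM (median 751) after, a log2 difference of 7.62 ± 0.54 (SE; adjusted p = 2.1e-10). GATA6, the factor of the primitive endoderm, was between 0 and 5.99 CPM (median 0.222) before and at a median of 199 CPM after, a log2 difference of 6.90 ± 0.44 (SE; adjusted p = 7.8e-11). DPPA3 (STELLA), a protector of maternal methylation, was between 241 and 563 CPM (median 353) before and between 20.6 and 143 CPM (median 51.9) after, a log2 difference of -3.16 ± 0.44 (SE; adjusted p = 2.5e-06), and KLF11 also fell, by 3.37 on the log2 scale. SOX2 did not pass the filter, with at most 12.3 CPM in any sample.

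Several trophectoderm genes had their highest levels in the blastocysts. Of 37 listed, 13 were tested, 7 rose and none fell (median 1.66). The filter required reads in about as many samples as the smaller period held, so that a gene present in the 2 blastocysts alone could not be tested. TFAP2C, a factor that acts before the lineages separate, was between 0 and 0.694 CPM (median 0) before EGA and between 61.6 and 281 CPM (median 118) after it, with 2 reads in all before it (adjusted p = 2.7e-12). KRT18, a keratin of the trophectoderm, was between 0 and 0.694 CPM (median 0) before and between 0 and 388 CPM (median 13.5) after, with 2 reads in all before it (adjusted p = 0.0017), and overlapped. Its level was 388 and 367 CPM in the blastocysts. KRT8 had 525 and 503 CPM in the blastocysts and GATA3 176 and 138 CPM, but neither was called between the periods (adjusted p = 0.69 and 0.32), although edgeR (adjusted p = 0.047 and 0.039) and DESeq2 (adjusted p = 0.045 and 0.013) called both higher. The sample with the next highest level of KRT18, KRT8, PLAC8 and GATA3 was 16C replicate 2, at 114, 102, 74.1 and 41.1 CPM. CDX2, a defining marker of the trophectoderm, had 1 read in 8C replicate 1 and none in the blastocysts.

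In the WNT pathway, 4 rose, 11 fell and 4 were not called of 19 tested (median -2.08), from 65 listed. WNT5A, a ligand of the non-canonical branch, was between 85.1 and 766 CPM (median 451) before EGA and between 0 and 67.3 CPM (median 0) after it, a log2 difference of -7.99 ± 0.77 (SE; adjusted p = 1.5e-08). Before EGA its level was 85.1 and 92.9 CPM in the oocytes and 550.0 and 766 CPM at the 4-cell stage, a difference that was not tested. After EGA it was detected at more than 1 CPM only in 8C replicate 2. DKK2, a secreted modulator of the pathway, was between 10.4 and 92.5 CPM (median 39.5) before and between 0 and 2.89 CPM (median 0) after, with 3 reads in all after it (adjusted p = 4.8e-09). LEF1, a transcription factor of its nuclear end, was between 39 and 132 CPM (median 88.5) before and between 0 and 25 CPM (median 0.386) after, a log2 difference of -5.96 ± 0.61 (SE; adjusted p = 3.6e-08). CSNK1A1, a kinase that marks beta-catenin for destruction, was between 22.2 and 82.5 CPM (median 28.9) before and between 137 and 423 CPM (median 211) after, a log2 difference of 2.13 ± 0.31 (SE; adjusted p = 3.6e-06).

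In the TGF-beta and BMP pathways, 4 rose, 11 fell and 5 were not called of 20 tested (median -1.20), and 7 fell on values scaled to total reads. BMPR1B was between 14.5 and 34 CPM (median 28) before EGA and between 0 and 2.89 CPM (median 0.9) after it, a log2 difference of -4.49 ± 0.44 (SE; adjusted p = 1.8e-08). BMPR2, the receptor through which the oocyte factors BMP15 and GDF9 signal, was between 12.4 and 67.2 CPM (median 34.8) before and between 0 and 17.3 CPM (median 3.32) after, a log2 difference of -3.48 ± 0.54 (SE; adjusted p = 9.5e-06). Among receptor tyrosine kinases and their ligands, 5 rose, 5 fell and 7 were not called of 17 tested from 87 listed (median -0.01), and 3 fell on values scaled to total reads. NRG3, a ligand of the ERBB receptors, was between 632 and 1724 CPM (median 1137) before and between 0 and 26 CPM (median 0.743) after, a log2 difference of -9.60 ± 0.60 (SE; adjusted p = 5.3e-11). FGF1, a fibroblast growth factor, was between 0 and 36.9 CPM (median 11.5) before and between 248 and 1403 CPM (median 752) after, a log2 difference of 6.14 ± 0.66 (SE; adjusted p = 7.2e-08). FGFR4, a receptor for such factors, was at 0 in every sample before and between 1.65 and 24.4 CPM (median 11) after, at least 5.73-fold higher after (adjusted p = 1.3e-06). IGF1R, the receptor of insulin-like growth factor, was between 4.82 and 40.3 CPM (median 16.3) before and between 0 and 10.8 CPM (median 3.31) after, a log2 difference of -2.34 ± 0.58 (SE; adjusted p = 0.0012), with an overlap.

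The Hippo pathway, which reads cell position in the morula, had members on both sides. Of 17 tested, 6 rose (35.3%), 7 fell (41.2%) and 4 were not called (median -0.75), against 36.9% and 29.9% of all loci. WWTR1 (TAZ), its transcriptional coactivator, was between 0 and 1.33 CPM (median 0) before EGA and between 8.81 and 147 CPM (median 43.3) after it, a log2 difference of 4.92 ± 0.51 (SE; adjusted p = 3.9e-08). AMOT, an angiomotin that holds the coactivators at the membrane, was between 42.4 and 221 CPM (median 73.3) before and between 8.2 and 47.7 CPM (median 21.5) after, a log2 difference of -2.64 ± 0.47 (SE; adjusted p = 5.2e-05). AMOTL2, of the same family, was between 0 and 2.08 CPM (median 0.148) before and between 2.95 and 42.6 CPM (median 15.4) after, a log2 difference of 3.35 ± 0.50 (SE; adjusted p = 6e-06). Of 14 genes of calcium signalling at egg activation, 6 rose, 3 fell and 5 were not called (median 0.24). CD9, a membrane protein of sperm and egg fusion that is also common in epithelia, was between 0.443 and 7.32 CPM (median 1.67) before and between 8.66 and 961 CPM (median 198) after, a log2 difference of 5.80 ± 0.72 (SE; adjusted p = 4.8e-07). ITPR1, the calcium channel of the egg, was between 2.22 and 22.6 CPM (median 17.7) before and between 0 and 31 CPM (median 7.44) after and was not called (adjusted p = 0.16), but was called lower with 8 stages in the model (adjusted p = 0.035). Of 73 tested zinc finger genes named ZNF, 19 rose, 24 fell and 30 were not called (median -0.51), while on values scaled to total reads 24 rose and 19 fell. Of 5 tested synaptonemal complex and recombination genes, 1 rose, 2 fell and 2 were not called, and 1 fell on values scaled to total reads. SYCP3 was between 167 and 381 CPM (median 282) before and between 12.4 and 417 CPM (median 36.6) after, a log2 difference of -2.97 ± 0.61 (SE; adjusted p = 0.00023), with an overlap.

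Some of the largest changes among all genes with a symbol were outside these lists. CYBRD1, a ferric reductase of the plasma membrane, was between 1544 and 8379 CPM (median 5567) before EGA and between 0 and 154 CPM (median 8.09) after it, a log2 difference of -9.34 ± 0.88 (SE; adjusted p = 1.1e-08). LRRC8B, a subunit of volume-regulated anion channels, was between 752 and 2966 CPM (median 1487) before and between 0 and 315 CPM (median 2.52) after, a log2 difference of -8.76 ± 0.92 (SE; adjusted p = 5.2e-08). CHL1, a cell adhesion molecule, was between 275 and 1791 CPM (median 663) before and between 0 and 14.4 CPM (median 2.07) after, a log2 difference of -8.22 ± 0.56 (SE; adjusted p = 1.3e-10). SLC30A2, a zinc transporter, was between 0 and 2.37 CPM (median 0.219) before and between 389.8 and 1808 CPM (median 716) after, a log2 difference of 8.94 ± 0.44 (SE; adjusted p = 2.7e-12). GM2A, the lysosomal activator of ganglioside breakdown, was between 1.33 and 71.2 CPM (median 18.8) before and between 2985 and 8901 CPM (median 4933) after, a log2 difference of 8.09 ± 0.52 (SE; adjusted p = 8e-11). These 5 were chosen among called loci without overlap between the periods, so their separation came with the choice.

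Markers of other cell types that could accompany an oocyte or embryo were examined beside these results. Of 21 cumulus and granulosa markers, 5 were tested. HAS2, a hyaluronan synthase of cumulus cells, was between 68.7 and 298 CPM (median 167) before EGA and between 0 and 18.3 CPM (median 0) after it, and STAR, of steroid synthesis, was between 443 and 1727 CPM (median 1181) before and between 379 and 842 CPM (median 575) after. Both fell, as the oocyte genes did, while the cumulus list's LHCGR and NR5A2 rose with an overlap. The cumulus markers TNFAIP6, PTX3, VCAN and CD44 reached at most 2.94, 2.66, 2.46 and 5.77 CPM in any sample. The cumulus list summed to between 576 and 2007 CPM before EGA and between 389.8 and 906 CPM after it. Blood and leukocyte markers summed to between 5.26 and 17.3 CPM before and between 5.13 and 26 CPM after, with PTPRC and HBA1 at 0 in all samples before. Oviduct and fibroblast markers summed to between 1.31 and 88.5 CPM before and between 2.86 and 41.1 CPM after. OVGP1, the oviduct glycoprotein, reached 75.2 CPM in 2C replicate 1. Sperm markers summed to between 15.5 and 36.1 CPM before and between 6.19 and 28 CPM after, and PRM1 and PRM2 had no read in any sample. The part of such cells in the results was not tested.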

How the data were processed

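The deposited values were signal values that the authors had made from trimmed and mapped reads; per the labels, their processing notes name cutadapt, FastQC, TopHat, Cufflinks and HTSeq, without versions. The genome build, the strand setting and the rule for reads with several matches are not given in the sources used here, so reads of near-identical or overlapping genes cannot be assigned with certainty. Within each sample every value above 0 was a whole multiple of 1 step (100.0% within 0.1 read), so the values were read counts divided by a size factor and not by length, with totals between 607672 and 3379426. Without molecular identifiers, floors of 3 reads cover counting error only.

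Loci were filtered with filterByExpr of edgeR 4.0.16 on the recovered reads, and the 6910 that passed were tested with limma 3.58.1 (R 4.3.3, with a trend) on log2(value + 1) in 1 model of the 2 periods over all 16 samples. A count test was not the main test because the deposited values are not counts. Alternatives were edgeR and DESeq2 1.42.0 on the recovered reads, TMM and total-read scaling, pseudocounts of 0.5 and 5, other filters, 8 stages in the model, the replicate number as a block, each sample or some stages left out, and loci of 1 name summed. Where several loci had a gene's name, the one with the highest mean was used. Where a period had no read, the lower bound of the fold is the mean CPM of the other period over the largest 3-read floor of the empty one (2.08 CPM before, 4.94 CPM after); with 1 to 3 reads no fold is given.

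The comparison, gene lists and pairs were chosen with earlier results of these data known. Of 2816 listed genes, 2724 were found by symbol or by a RefSeq synonym (ARS-UCD2.0), and the others were not analysed here. Named genes were preselected key genes, family pairs and up to 3 largest changes without overlap in each direction of a list. The 10 largest rises and falls without overlap and with a mean of at least 10 CPM were added. Exceptions and uncalled members named beyond these were chosen after their values were seen. The procedure was tested on simulated data. Results of some genes are not reported here.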

Additional observations from a re-analysis of the deposited data

Results flagged for a closer look

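The summed CPM of each gene list was examined within each period for a sample far from the others (Dixon's 95% limit, applied to log2 of the sum + 1). On the unlogged sums, the amino acid transporters and the RNA polymerase I and III subunits named here stay within the limit, while antioxidant enzymes and aminoacyl-tRNA synthetases in 2C replicate 1 and the BCL2 family and splicing factors in EM replicate 2 pass it. Of 104 groups 9 had such a sample (8.65%), where chance gives about 1 in 20. In 8C replicate 2, genes of meiotic arrest summed to 8486.06 CPM (others after EGA between 1649 and 2961), maternal effect genes to 3146.44 CPM (others between 217 and 618), and RNA polymerase I and III subunits to 1394.78 CPM (others between 3257 and 6323). In MII replicate 2, amino acid transporters summed to 236.645 CPM (others before EGA between 544 and 876), mRNA storage genes to 2104.39 CPM (others between 3569 and 4095), and genes of RNA polymerase II and general factors to 1354.14 CPM (others between 2145 and 2574). In MII replicate 1 Mediator subunits summed to 4811.07 CPM (others between 1142 and 1452). In 2C replicate 1 CCT and prefoldin genes summed to 4439.52 CPM (others between 2736 and 3049.6), and oviduct and fibroblast markers to 88.5243 CPM (others between 1.31 and 7.37).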

How the results depend on the processing

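The number of loci that rose was 2550 and lay between 2293 and 3372 over the alternatives, and the number that fell was 2069 and lay between 1595 and 3703. The count that fell moved by over 1.5 times only without a filter on low counts. There 3703 fell and 3372 rose, so that falls outnumbered rises. On the recovered reads 2510 rose and 1914 fell by edgeR, 2574 and 2070 by DESeq2; on values scaled to total reads it was 2872 and 1595, with TMM factors 2622 and 1989. Without the oocyte stage 2293 rose and 1947 fell. Leaving out 1 sample gave between 2400 and 2564 rises and between 1990 and 2086 falls. Calls over the functional lists numbered 1109 (between 1023 and 1293, or 1056 and 1115 with 1 sample left out), and over the family pairs 16 (between 14 and 19, or 15 and 17). Of 320 named genes, between 305 and 320 kept direction and call in each alternative and none reversed; the lowest was without the oocyte stage, where 12 lost the call and 3 gained it. GATA3 and KRT8 were called by edgeR and DESeq2 and not by limma. Of 104 list counts, 21 moved by over 1.5 times without the filter and 15 with total-read scaling. Without the oocyte stage 9 moved so far, and without the blastocyst stage 6. Leaving out 1 sample moved at most 6, without MII replicate 2, and 3 without MII replicate 1. The cause was not tested. Replicate numbers did not pair the samples: over 28 pairs of stages, the correlation of same-numbered deviations lay between -0.28 and 0.14. With the replicate number as a block, 2523 loci rose and 2056 fell. Depth limits the lowest genes: 3 reads were 4.94 CPM in the shallowest library, and libraries before EGA were deeper (at least 1440058 reads) than most after it (at most 1805933).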

Other observations

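The following loci were chosen after their values were seen. ODC1, the first enzyme of polyamine synthesis, was the locus with the most reads in 8C replicate 1, both 16C samples and both EM samples. It did not change between the periods past the threshold. Its level was between 5467 and 95696 CPM (median 39203) before EGA and between 15191 and 59043 CPM (median 28474) after it (limma, adjusted p = 0.83). Within the earlier period its stage means were 82460 CPM in MII, 41213 CPM in 2C and 6620 CPM in 4C, and they were not tested. A second locus of that name was at most 111.6 CPM before and 249 CPM after.

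The unnamed transcript CUFF.56339.1 was the locus with the most reads in 2C replicate 2 and in both 4C samples, where it took between 7.44% and 27.0% of the reads. CUFF.56339.1 was between 786 and 269943 CPM (median 54127) over the samples before EGA and between 799 and 13185 CPM (median 2762) after it. The samples before EGA differed widely among themselves, and the periods overlapped.

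Some large rises lay at loci beside other genes in the RefSeq order. ZNF79, between SLC2A8 and RPL12 in that order, was between 32.9 and 553 CPM before EGA and between 5632 and 13979 CPM after it (log2 difference 5.89 ± 0.46, limma, adjusted p = 6.9e-10). RPL12, 1 of the 2 ribosomal protein genes of the list that were not called, was between 0.438 and 226 CPM before and between 88.1 and 251 CPM after (limma, adjusted p = 0.16). MAP3K15, next to PDHA1, was between 2.19 and 18.1 CPM before and between 505 and 6148 CPM after (log2 difference 7.63 ± 0.51, limma, adjusted p = 1.3e-10), while PDHA1 fell (log2 difference -1.54). MOG, a myelin protein in adult tissue, next to ZFP57 in that order, had 2 loci, of which the main one was between 0 and 6.94 CPM before and between 600.2 and 1427 CPM after (log2 difference 8.35 ± 0.43, limma, adjusted p = 2.7e-12).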
